A study of Homo sapiens with 6 samples.

Results

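The subunits of the Polycomb repressive complexes were examined in MDA-MB-231 cells, an established line of triple-negative breast cancer of the basal subtype, after knockdown of ZNF148. The set held 10 genes, chosen by symbol: EZH1, EZH2, SUZ12, EED, RBBP4, RBBP7 and JARID2 of Polycomb repressive complex 2 (PRC2), and RING1, RNF2 and CBX2 of Polycomb repressive complex 1 (PRC1). They occupied 15 of the 24108 rows of the expression table, since RING1 had 6 rows and the other 9 genes had 1 row each. RNA-seq was available for 3 samples transduced with a lentiviral hairpin against luciferase (shCtr) and 3 samples transduced with a hairpin against ZNF148 (shZNF148). All 6 samples shared 48 h of transduction and 24 h of selection in puromycin at 0.5 µg/ml. The design holds 1 hairpin per group, so a response to the hairpin itself and a response to ZNF148 loss cannot be told apart. The labels do not say that the replicates came from separate cultures, so p-values measure the spread between these samples, which may be technical.

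Polycomb complexes keep genes silent by marking the histones around them. PRC2 methylates lysine 27 of histone H3 through its catalytic subunit, EZH1 or EZH2, held in a core with SUZ12, EED and the histone-binding proteins RBBP4 or RBBP7. PRC1 ubiquitylates histone H2A through RING1 or RNF2, and its chromobox subunits, CBX2 among them, bind the methyl mark laid by PRC2. In dividing cells some PRC2 genes, EZH2 among them, are known to be expressed with the cell cycle under E2F factors. EZH2 is frequently overexpressed in breast cancer, and the HOX genes are the classical targets of both complexes.

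The hairpin sequence listed for ZNF148 is shown because it defines the treated group.
shZNF148 target: cccttggtgaatgtaaatgat

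Promoter windows of 300 bases, from 250 before to 50 after the transcription start, were taken from RefSeq (GRCh38.p14) for 9 of the 10 genes, in 13 windows. They are shown for both catalytic subunits and for RBBP4 and RBBP7, the 2 paralog pairs whose balance is described below, with the first listed window of each gene. Capitals mark matches on either strand to 4 E2F words (TTTCCCGC, TTTGGCGC, TTTGCCGC and TTTCGCGC), to the E-box CACGTG, or to CCCTCCCC, a GC-box-like word of the kind bound by ZNF148 and its relative ZNF281. The windows lie on the minus strand at chr7:148884242-148884541 for EZH2, at chr17:42744991-42745290 for EZH1 and at chrX:16870313-16870612 for RBBP7, and on the plus strand at chr1:32650958-32651257 for RBBP4.
EZH2: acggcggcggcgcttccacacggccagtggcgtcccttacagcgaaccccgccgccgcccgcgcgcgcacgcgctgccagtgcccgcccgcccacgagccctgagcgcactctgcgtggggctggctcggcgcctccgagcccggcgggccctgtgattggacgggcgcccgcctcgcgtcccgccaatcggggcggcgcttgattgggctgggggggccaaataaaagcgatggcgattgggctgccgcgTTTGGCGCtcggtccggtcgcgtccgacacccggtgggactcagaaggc
EZH1: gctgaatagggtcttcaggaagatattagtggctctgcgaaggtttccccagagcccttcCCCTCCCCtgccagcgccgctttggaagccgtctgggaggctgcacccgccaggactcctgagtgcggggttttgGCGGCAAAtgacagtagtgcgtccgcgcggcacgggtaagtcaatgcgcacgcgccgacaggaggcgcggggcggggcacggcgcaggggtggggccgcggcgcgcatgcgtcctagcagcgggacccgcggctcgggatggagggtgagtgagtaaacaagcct
RBBP4: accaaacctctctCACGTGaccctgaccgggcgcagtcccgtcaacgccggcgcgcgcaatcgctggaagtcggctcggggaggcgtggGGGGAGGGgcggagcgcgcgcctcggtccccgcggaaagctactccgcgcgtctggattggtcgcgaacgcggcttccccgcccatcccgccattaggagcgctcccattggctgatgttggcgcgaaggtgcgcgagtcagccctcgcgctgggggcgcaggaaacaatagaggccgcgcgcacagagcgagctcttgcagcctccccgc
RBBP7: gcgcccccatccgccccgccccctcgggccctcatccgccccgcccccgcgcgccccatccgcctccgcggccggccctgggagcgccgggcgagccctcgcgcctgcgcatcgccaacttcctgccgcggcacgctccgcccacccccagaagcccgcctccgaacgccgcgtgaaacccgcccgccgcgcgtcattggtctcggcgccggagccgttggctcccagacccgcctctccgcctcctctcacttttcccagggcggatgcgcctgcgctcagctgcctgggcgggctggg

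An E2F word was found in the windows of 3 of the 9 genes, EZH1, EZH2 and SUZ12, and in 3.30% of the 34943 RefSeq windows of the same length. The E-box was found in RBBP4 and in 7.23% of all windows. The GC-box-like word was found in EZH1, RBBP4 and RNF2 and in 13.6% of all windows. The windows of RBBP7, EED, JARID2 and RING1 held none of these words. The members' windows were between 52.3% and 79.3% G or C. Members were counted by gene over 13 windows, and all others by window, without matching for base composition. Enrichment was therefore not assessed. No binding data were analysed here, and a match describes the letters only.

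The knockdown was checked first. Values are given throughout in the order of replicates 1, 2 and 3. ZNF148 was at 3.72, 4.36 and 4.30 FPKM in shCtr and at 0.914, 0.282 and 0.834 FPKM in shZNF148. FPKM corrects a fragment count for transcript length and library size, which is meant to make levels of different genes comparable. Rows at 0 and rows joined with another gene, described below, can misstate a level. Comparisons between genes are therefore approximate. The log2 fold change was -1.63 (limma adjusted p = 0.0099, standard error, SE, 0.18), with 12 of the 14 alternative settings also past the threshold. The value depended on the pseudocount and was -2.57 with 0.1 FPKM and -0.69 with 5 FPKM, while the mean FPKM of shZNF148 was 16.4% of that of shCtr. ZNF148 did not pass without shCtr replicate 1 (adjusted p = 0.0603) or without shCtr replicate 3 (adjusted p = 0.0568). The 5 markers of the mesenchymal-like line were all expressed, and their summed level was 4771 to 5022 FPKM in shCtr and 3779 to 4066 FPKM in shZNF148. Of these 5 markers, 3 fell past the test, as did 8.13% of all 11777 tested rows, and all 5 had groups that did not overlap, as did 41.0% of all tested rows. Of 9 markers of other subtypes or cell types, ESR1 was listed at 0 in every sample, PTPRC, CD3E, PECAM1 and PGR stayed at or below 0.131 FPKM, and CDH1 stayed at or below 0.491 FPKM. KRT18 was strongly expressed, at 149 to 173 FPKM in shCtr, and fell to 121 to 130 FPKM in shZNF148. The other tested markers were EPCAM at 7.996 to 11.1 FPKM and ERBB2, whose row is joined with MIR4728. The ERBB2 row was at 126 and 125 FPKM in replicate 2 of shCtr and of shZNF148 and at 20.1 to 24.8 FPKM in the other 4 samples. With KRT18 and the ERBB2 row included, the summed level of the 9 was 194 to 287 FPKM in shCtr and 155 to 260.4 FPKM in shZNF148. The part of these marker shifts in the Polycomb results was not tested. The summed FPKM of a sample was 497730 to 507312 in shCtr and 469594 to 488173 in shZNF148, so the groups did not overlap. The part of this difference in the small changes below was examined only through 2 other scalings, median-of-ratios and quantile. The number of reads behind the values is unknown.

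No Polycomb subunit was called upon ZNF148 depletion. None of the 9 measurable members passed the limma test at an adjusted p under 0.05, where 13.6% of all 11777 tested rows did. At an unadjusted p under 0.05 there were 3 members, EZH2, RBBP4 and RBBP7, against 33.8% of all tested rows. The 9 log2 fold changes lay between -0.22 and 0.24, with a median of -0.03, where the median over all tested rows was 0.01. Their median size without sign was 0.14, and that of all tested rows was 0.19. The 95% interval of every one of the 9 members lay within a 1.5-fold change in either direction, as did that of 68.4% of all tested rows. Alternative settings left this at 7 to 9 members, with CBX2 outside in 7 of the 15 settings and SUZ12 outside when shZNF148 replicate 1 was left out. These fold changes are on the log2(FPKM + 1) scale, which understates the change of low genes such as CBX2.

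**Figure D1:**
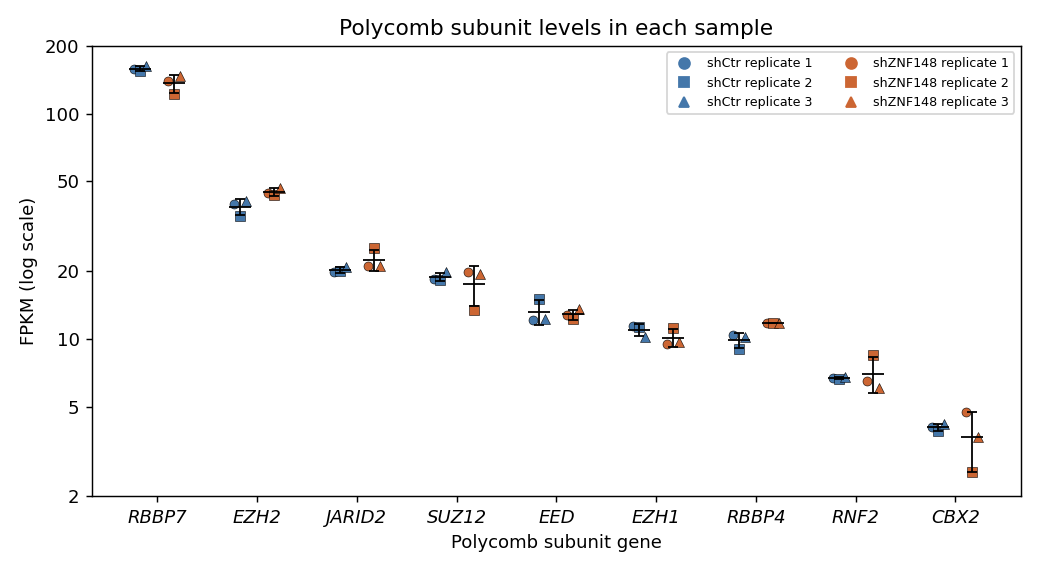
Level of each measurable Polycomb subunit in FPKM (log axis) in the 3 shCtr samples (blue) and the 3 shZNF148 samples (orange), with the marker shape giving the replicate number and the black bar the mean ± SD. RBBP7 sat highest and CBX2 lowest in both groups, and shZNF148 replicate 2 (square) stood apart from its group for EZH1, SUZ12, JARID2 and RNF2.

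In the shCtr samples the order of levels was RBBP7, EZH2, JARID2, SUZ12, EED, EZH1, RBBP4, RNF2 and CBX2. Within shCtr, neighbours in that order did not overlap, with the exception of EZH1 and RBBP4, whose ranges of 10.2 to 11.4 FPKM and 9.03 to 10.4 FPKM did. RBBP7 ranked above 95.7% of all tested rows by mean level and CBX2 above 19.2%. In shZNF148 the range of RBBP4, 11.76 to 11.82 FPKM, lay wholly above that of EZH1, 9.47 to 11.2 FPKM.

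EZH2, on chromosome 7 from 148807257 to 148884321 (minus strand, GRCh38), is the main H3K27 methyltransferase of dividing cells. It was at 39.7, 35.3 and 40.9 FPKM in shCtr and at 44.2, 43.7 and 46.9 FPKM in shZNF148. The lowest shZNF148 value was above the highest shCtr value, so the groups did not overlap. That was the case for 4 of the 9 members and for 41.0% of all tested rows. The change was 0.22 on the log2 scale (SE 0.08, 95% interval 0.04 to 0.40), which is 1.16-fold. The limma adjusted p of 0.1003 did not pass. In the exact permutation test, two-sided, p was 0.1, which is the lowest that a design of 3 against 3 can reach. Across the 15 alternative settings the log2 fold change ran from 0.15 to 0.26 and its adjusted p from 0.0970 to 0.218. In bulk RNA a larger share of cycling cells and more EZH2 RNA per cell cannot be told apart.

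EZH1, on chromosome 17 from 42700275 to 42745049 (minus strand), is the alternative catalytic subunit and is better known from resting and differentiated cells. Its shCtr replicates were at 11.4, 11.2 and 10.2 FPKM and its shZNF148 replicates at 9.47, 11.2 and 9.68 FPKM. The groups overlapped through shZNF148 replicate 2, and the log2 fold change was -0.11 (95% interval -0.32 to 0.10, adjusted p = 0.424 from limma). With 1 sample left out it ran from -0.18, without shZNF148 replicate 2, to -0.07, without shZNF148 replicate 1.

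The balance of the catalytic pair was taken as the ratio of their FPKM within each sample. EZH2 exceeded EZH1 in every sample, by 3.47, 3.14 and 4.01 times in shCtr and by 4.67, 3.92 and 4.84 times in shZNF148. The mean ratio was 3.54 ± 0.438 in shCtr and 4.48 ± 0.493 in shZNF148 (SD, n = 3 each; exact two-sided permutation test, p = 0.2, and 0.2 after Benjamini-Hochberg adjustment over 2 pairs). The groups overlapped, because shZNF148 replicate 2 lay below shCtr replicate 3.

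SUZ12 and EED hold the PRC2 core together. SUZ12, the scaffold, on chromosome 17 from 31937007 to 32001038 (plus strand), was at 18.5, 18.2 and 19.7 FPKM in shCtr and at 19.7, 13.5 and 19.4 FPKM in shZNF148. Only shZNF148 replicate 2 lay apart, and the log2 fold change of -0.11 (95% interval -0.46 to 0.23, adjusted p = 0.615 from limma) became 0.06 without that sample. A separate row of SUZ12 pseudogene sequence exists in the table, so reads of near-identical copies may be split between the rows. EED, which binds the H3K27 methyl mark and stimulates the enzyme, lies on chromosome 11 from 86201212 to 86278813 (plus strand). It was at 12.1, 15.1 and 12.2 FPKM in shCtr and at 12.8, 12.2 and 13.5 FPKM in shZNF148. All 3 shZNF148 values fell inside the shCtr range, and the log2 fold change was -0.03 (95% interval -0.27 to 0.21, adjusted p = 0.873 from limma). This sign turned without shCtr replicate 2 (0.07) and without shZNF148 replicate 2 (0.00457).

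RBBP4 and RBBP7 are closely related WD40 proteins that hold histones in PRC2 and also serve in histone deacetylase and chromatin assembly complexes. RBBP4, on chromosome 1 from 32651142 to 32686211 (plus strand), was at 10.4, 9.03 and 10.2 FPKM in shCtr. In shZNF148 it was at 11.77, 11.82 and 11.76 FPKM, above every shCtr value. This was a log2 fold change of 0.24 (SE 0.08, 95% interval 0.05 to 0.42), and the adjusted p of 0.0845 from limma did not pass. RBBP7, on chromosome X from 16839283 to 16870362 (minus strand), was at 158, 154 and 163 FPKM in shCtr and at 139, 123 and 147 FPKM in shZNF148. Here every shZNF148 value was below every shCtr value. The log2 fold change of RBBP7 was -0.22 (SE 0.08, 95% interval -0.41 to -0.03), with an adjusted p of 0.105 from limma that did not pass either. It was smallest, at -0.15, without shZNF148 replicate 2, and -0.16 with quantile normalization.

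The ratio of RBBP4 to RBBP7 was 0.0655, 0.0585 and 0.0627 in shCtr. In shZNF148 it was 0.0846, 0.0963 and 0.0800, so the groups did not overlap. The mean was 0.0622 ± 0.00352 in shCtr and 0.0870 ± 0.00839 in shZNF148 (SD, n = 3 each), a 1.39-fold difference. By exact permutation (two-sided) p was 0.1, again the lowest reachable, and 0.2 after adjustment over the 2 pairs. With any 1 sample left out the log2 difference stayed between 0.40 and 0.54. RBBP7 made up 93.9% to 94.5% of the pair's summed FPKM in shCtr and 91.2% to 92.6% in shZNF148. The sum itself was 163 to 173 FPKM in shCtr and 135 to 159 FPKM in shZNF148.

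**Figure D2:**
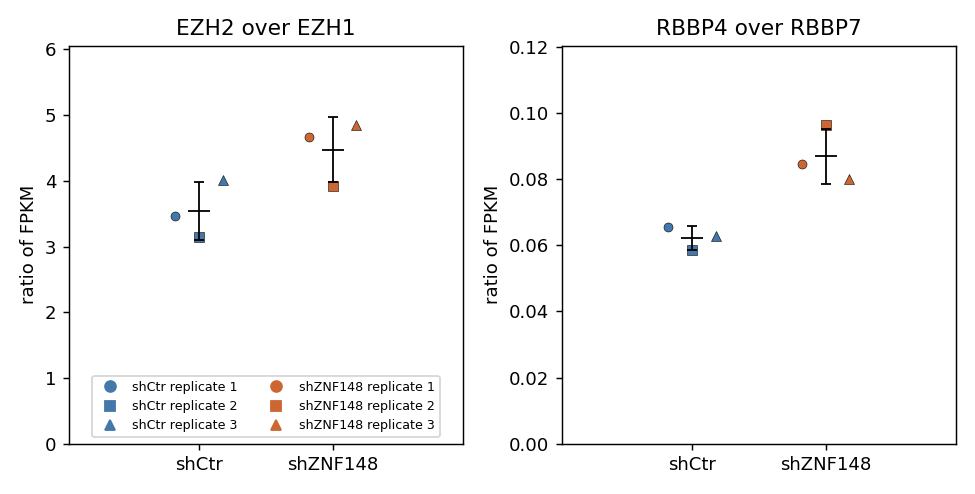
Ratio of FPKM of EZH2 over EZH1 (left) and of RBBP4 over RBBP7 (right) in each sample, by group, with axes from 0, the marker shape giving the replicate and the black bar the mean ± SD (n = 3). The EZH2 ratio overlapped between groups, and the RBBP4 ratio was 0.0585 to 0.0655 in shCtr and 0.0800 to 0.0963 in shZNF148.

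JARID2, on chromosome 6 from 15246069 to 15522042 (plus strand), is an accessory subunit that helps bring PRC2 to chromatin. It was at 19.8, 19.96 and 20.9 FPKM in shCtr and at 21.2, 25.2 and 21.0 FPKM in shZNF148. The groups did not overlap, although shZNF148 replicates 1 and 3 lay just above the highest shCtr value. On the log2 scale the change was 0.14 (95% interval -0.07 to 0.35, adjusted p = 0.300 from limma), and 0.06 without shZNF148 replicate 2.

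Of the PRC1 members, RNF2, the E3 ligase also known as RING1B, lies on chromosome 1 from 185045526 to 185102603 (plus strand). It was at 6.73, 6.64 and 6.75 FPKM in shCtr and at 6.49, 8.45 and 6.07 FPKM in shZNF148. The shZNF148 values lay on both sides of the shCtr values, and the log2 fold change of 0.04 (95% interval -0.25 to 0.33, adjusted p = 0.830 from limma) became -0.08 without shZNF148 replicate 2. CBX2, the chromobox subunit known for compacting nucleosomes, lies on chromosome 17 from 79778148 to 79787983 (plus strand). It was at 4.06, 3.90 and 4.20 FPKM in shCtr and at 4.74, 2.57 and 3.67 FPKM in shZNF148. Its shZNF148 values were again spread on both sides. The log2 fold change of CBX2 was -0.14 (95% interval -0.56 to 0.27, adjusted p = 0.597 from limma), and 0.04 without shZNF148 replicate 2.

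RING1, on chromosome 6 from 33208500 to 33212722 (plus strand), was listed at 0 in all 6 samples in all 6 of its rows. No fold change and no ratio to RNF2 can be given for it. The 3 protein-coding genes that precede it in GENCODE order, RXRB, SLC39A7 and HSD17B8, also had 6 rows each, all at 0. RPS18, a ribosomal protein gene used by every cell and the second gene after RING1, had 5 of its 6 rows at 0 and 0.510 FPKM in the other. Of the 23 symbols on chromosome 6 that had 6 rows, 13 were at 0 throughout. A 0 in this table can therefore be a failed estimate, and the listed values do not tell whether RING1 was expressed.

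The spread within shZNF148 was uneven among the members. In 7 of the 9 members shZNF148 replicate 2 was the sample farthest from the median of its group, as it was in 5889 of all 11777 tested rows. It was the highest or the lowest of all 6 samples in 6 of the 9, and in 54.0% of all rows. The same sample had the lowest ZNF148 level, 0.282 FPKM. Its part in the members' changes was tested only by leaving it out, which turned the sign of SUZ12, EED, RNF2 and CBX2 and kept that of the other 5.

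The 3 tested rows whose log2(FPKM + 1) followed EZH2 most closely over the 6 samples were KRCC1 (Pearson r = 0.989), PHLDB1 (r = 0.984) and ZSCAN29 (r = 0.983). KRCC1 was at 19.0, 13.3 and 19.0 FPKM in shCtr and at 23.1, 22.5 and 25.2 FPKM in shZNF148. Among the members RBBP4 was most like EZH2 (r = 0.955), and EZH1 was the least (r = -0.68). In all, 56 rows had an r above 0.95. These values are descriptions over 6 points that share their libraries and their group difference.

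The remaining Polycomb genes were read from lists of further PRC2 subunits, further PRC1 subunits, and opposing enzymes with their partners. Of 44 such genes 43 were found and 40 passed the filter on low values. Past an adjusted p under 0.05, 3 rose and 1 fell (5.46% and 8.13% of all tested rows did so), and none changed by more than 1.5-fold, where 5.49% of all tested rows were called at both thresholds. The median log2 fold change was 0.01 both in these 40 genes and over all tested rows. The 4 calls were MTF2, PCGF3, RYBP and KDM6A, and the count fell to 0 when any 1 of the 3 shCtr samples, shZNF148 replicate 1 or shZNF148 replicate 3 was left out, and to 2 without shZNF148 replicate 2.

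**Figure D3:**
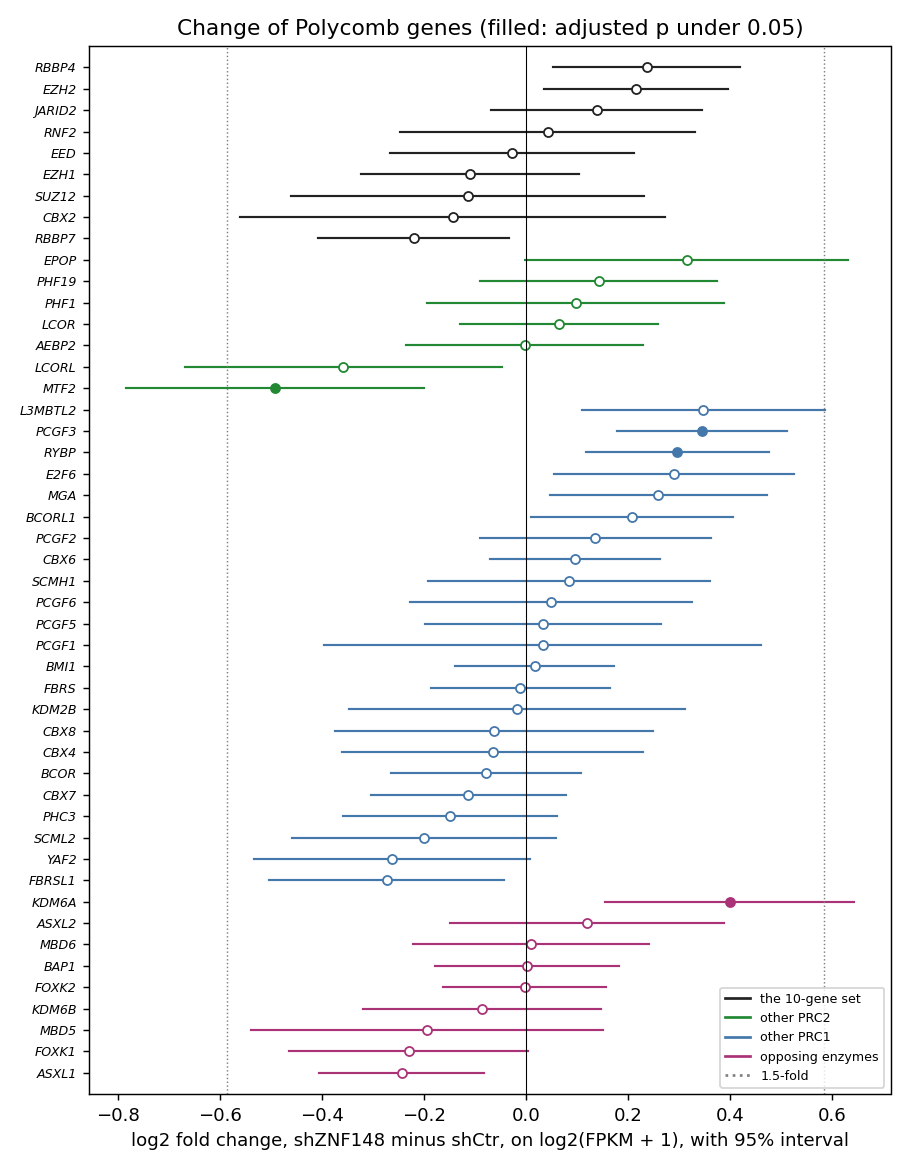
Log2 fold change (shZNF148 minus shCtr, on log2(FPKM + 1)) with its 95% interval for the 9 measurable members (black), further PRC2 genes (green), further PRC1 genes (blue) and opposing enzymes with their partners (purple), ordered by size within each group, with dotted lines at 1.5-fold. Filled points passed an adjusted p under 0.05, which held for MTF2, PCGF3, RYBP and KDM6A and for none of the 9 members. PHC2, whose row is joined with a microRNA gene, is not drawn.

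Among the further PRC2 genes 1 of 7 tested fell. MTF2, a Polycomb-like protein that brings PRC2 to CpG-rich DNA, was at 8.64, 8.95 and 9.21 FPKM in shCtr and at 6.85, 4.91 and 6.60 FPKM in shZNF148. Every shZNF148 value was below every shCtr value. The log2 fold change of MTF2 was -0.49 (limma adjusted p = 0.0453, SE 0.12). With 1 sample left out at a time it ran from -0.57 to -0.36, and its adjusted p passed only without shZNF148 replicate 2 (0.0318) and reached 0.138 without shCtr replicate 3. PHF19, another Polycomb-like protein and the highest of this list, was at 51.5, 54.5 and 56.3 FPKM in shCtr and at 66.3, 61.8 and 52.1 FPKM in shZNF148, with no call (limma adjusted p = 0.344). EPOP was found under its older symbol C17orf96, and EZHIP was not found.

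Of 24 tested genes of PRC1, 2 rose. PCGF3, which defines a variant form of PRC1 without chromobox subunits, was at 11.8, 11.3 and 11.2 FPKM in shCtr and at 13.97, 15.1 and 15.3 FPKM in shZNF148. RYBP, which takes the place of chromobox subunits in variant PRC1 and stimulates its ligase, was at 9.56, 10.4 and 10.9 FPKM in shCtr and at 13.1, 12.6 and 12.8 FPKM in shZNF148. The groups did not overlap for either gene. Their log2 fold changes were 0.35 for PCGF3 (limma adjusted p = 0.0293, SE 0.07) and 0.30 for RYBP (limma adjusted p = 0.0465, SE 0.08). Left out 1 at a time, no sample turned either sign, but PCGF3 passed only without shZNF148 replicate 2 (adjusted p = 0.0371) and RYBP passed in none of the 6 fits (0.0548 to 0.155).

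The paralogs of the PRC1 members were compared by level. CBX2 was the lowest of the 5 chromobox genes measured, with 10.3% ± 0.253 of their summed FPKM in shCtr and 9.48% ± 2.78 in shZNF148 (SD, n = 3 each), and these groups overlapped. CBX6 was the highest, with 37.2% ± 0.846 in shCtr and 40.5% ± 2.19 in shZNF148, and CBX7 held 16.1% ± 0.725 and 14.9% ± 0.463 (SD, n = 3 each), and for both of these the shares did not overlap between groups. None of the 5 chromobox genes passed the test. Of the PCGF genes, BMI1 held 33.1% ± 1.83 of the summed FPKM in shCtr and 31.9% ± 1.66 in shZNF148 (SD, n = 3 each). Its row is joined with COMMD3, so the value cannot be assigned to BMI1 alone, and the sum behind every PCGF share includes it. PCGF3 held 7.02% ± 0.561 and 8.63% ± 0.431 (SD, n = 3 each) and did not overlap. By FPKM, the groups did not overlap in 41.0% of all tested rows. Shares within a family depend on each other, so they are not separate results. PHC2, the highest of the PRC1 list, is joined with MIR3605 in its row, and its values of 186, 64.5 and 61.2 FPKM in shCtr and 67.4, 146 and 142 FPKM in shZNF148 differed as much within groups as between them.

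The list of enzymes that undo Polycomb marks also held partners of these enzymes. Of its 10 genes 9 were tested, and 1 rose. KDM6A, a demethylase of H3K27, was at 6.06, 5.47 and 6.22 FPKM in shCtr and at 7.92, 9.19 and 7.35 FPKM in shZNF148, with no overlap. Its log2 fold change was 0.40 (limma adjusted p = 0.0482, SE 0.10), and it passed in none of the 6 fits that left out 1 sample (adjusted p from 0.0537 to 0.138). KDM6B, the other H3K27 demethylase listed, changed by -0.09 on the log2 scale, with no call (limma adjusted p = 0.575). ASXL1, the partner of the deubiquitinase BAP1 and the highest of this list, was at 46.8, 48.6 and 49.97 FPKM in shCtr and at 43.4, 38.4 and 40.7 FPKM in shZNF148. Those groups did not overlap, and the adjusted p of 0.0592 did not pass.

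Of the 39 HOX genes, which Polycomb complexes are known to silence, 14 were listed at 0 in every sample and 5 passed the filter on low values. Among these 5, 4 had lower and 1 had higher mean levels in shZNF148, and 1 fell past the test, where 8.13% of all tested rows fell. HOXB9 was at 7.18, 8.33 and 6.15 FPKM in shCtr and at 3.06, 1.41 and 3.57 FPKM in shZNF148. Its log2 fold change of -1.20 (limma adjusted p = 0.0305, SE 0.25) was beyond 1.5-fold and stayed between -1.39 and -0.92 with 1 sample left out at a time. It was -1.49 with a pseudocount of 0.1 FPKM and -0.68 with 5 FPKM. HOXB9 passed without shZNF148 replicate 2 (adjusted p = 0.0162) or replicate 3 (0.0357) and not without shZNF148 replicate 1 (0.0609) or shCtr replicate 1, 2 or 3 (0.108, 0.0874 and 0.0877).

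**Figure D4:**
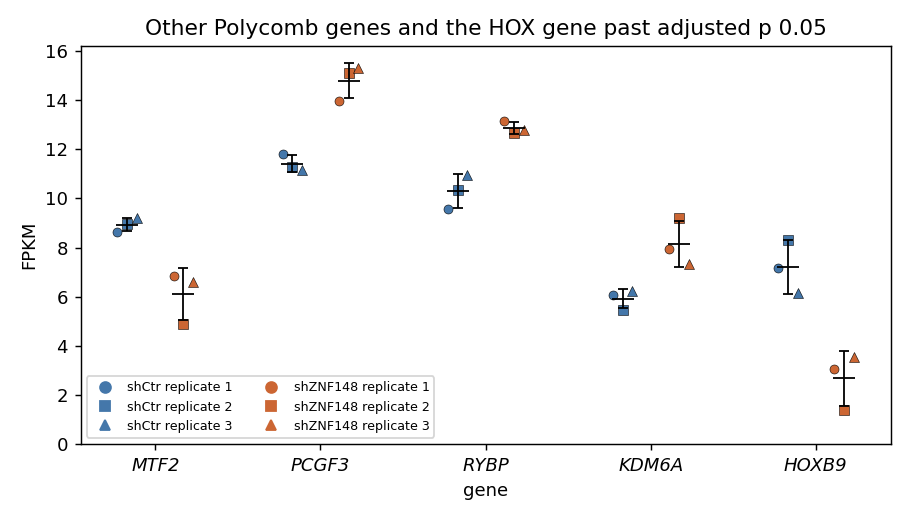
FPKM in each sample of the 4 further Polycomb genes and the HOX gene that passed an adjusted p under 0.05, with shCtr in blue, shZNF148 in orange, the marker shape giving the replicate and the black bar the mean ± SD (n = 3). MTF2 and HOXB9 were lower and PCGF3, RYBP and KDM6A higher in all 3 shZNF148 samples than in any shCtr sample.

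Because some PRC2 genes, EZH2 among them, are known to follow the cell cycle, 20 proliferation genes were read in the same fit. Of these, 10 had higher and 10 had lower mean levels in shZNF148, with a median log2 fold change of -0.01. Single genes ran from -0.34 for CCNA2 to 0.46 for RRM2, so the median does not describe them. The groups did not overlap in 9 of the 20 genes and in 41.0% of all tested rows. E2F1 was at 37.4, 35.1 and 36.6 FPKM in shCtr and at 41.9, 41.1 and 41.0 FPKM in shZNF148. It did not overlap between groups and was not called (limma adjusted p = 0.0802). Past the test, 2 rose and 1 fell, so 3 of 20 were called, where 13.6% of all tested rows were (5.46% higher and 8.13% lower). RRM2, a subunit of ribonucleotide reductase, rose by 0.46 on the log2 scale (limma adjusted p = 0.0150), and MCM4, a subunit of the replicative helicase, by 0.25 (adjusted p = 0.0465). BUB1, a mitotic checkpoint kinase, fell by 0.32 (limma adjusted p = 0.0405), but did not pass with quantile normalization (limma adjusted p = 0.0884). Of the 6 fits that left out 1 sample, RRM2 passed in 3, MCM4 in 1 and BUB1 in 1. With 1 sample left out, the count of calls in this list ran from 0, when any 1 of the shCtr replicates was left out, to 3. The summed level of the list was 1971 to 2059 FPKM in shCtr and 1855 to 2079 FPKM in shZNF148, and its part in the EZH2 values was not tested.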

How the data were processed

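Total RNA of 6 MDA-MB-231 samples, 3 shCtr and 3 shZNF148, was sequenced by the authors on an Illumina HiSeq instrument. The deposited values are FPKM as the authors made them, 1 column for each sample. The submitters' processing notes name bcl2fastq 2.17.1.14, TopHat2 2.0.14, Cufflinks 2.2.1, Cuffnorm 2.2.1 and the builds hg18 and hg19, whereas the methods of the paper name Salmon, GRCh38 and DESeq2. Which of these made the table, and with which annotation, is not given in the sources used here. Read counts are unknown, so no count test was run and the precision of low values cannot be stated.

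The filter kept 11777 of 24108 rows, those averaging 1 FPKM or more. On log2(FPKM + 1), limma 3.58.1 (R 4.3.3) modelled the hairpin alone, with eBayes moderation along the mean-variance trend. The Benjamini-Hochberg adjustment covered all fitted rows, and a row passed at an adjusted p under 0.05. Ratios of paralogs used FPKM + 0.1 on the log2 scale and an exact two-sided permutation test. A symbol with several rows was represented by its highest one. Older symbols were matched through tables of gene names. Positions are from GENCODE release 44 on GRCh38, while the table holds none. The fit was run on simulated data with independent noise and with shifts larger than the changes of the members. That run does not tell how well changes as small as theirs are detected. Python 3.11.15 was used for the remaining steps.

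Named were all members, every gene of the further lists past the test and the highest gene of each Polycomb list, the chromobox and PCGF paralogs, and the 3 rows most like EZH2. E2F1, CCNA2 and KDM6B were added after their values were known. The members and lists were chosen with earlier results of these data known. Alternatives covered the filter, the pseudocount, 2 other scalings, a block for replicate number, the variance trend, rows summed by symbol and each sample left out.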

Additional observations from a re-analysis of the deposited data

How the results depend on the processing

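None of the 9 Polycomb subunits passed an adjusted p under 0.05 in any of the 15 alternative settings. The direction held in every setting for EZH1, EZH2, RBBP4, RBBP7 and JARID2. It turned for SUZ12 (0.056), EED (0.00457), RNF2 (-0.083) and CBX2 (0.035) without shZNF148 replicate 2, and for EED without shCtr replicate 2 (0.069). With 1 sample left out the log2 fold changes ran from -0.20 to 0.056 for SUZ12, from -0.077 to 0.069 for EED, from -0.083 to 0.13 for RNF2 and from -0.31 to 0.035 for CBX2. CBX2 was not tested with the filter at a mean of 5 FPKM. The cause of these turns was not tested.

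The 4 calls among the further Polycomb genes fell to 1 without a filter on low values and ran from 0 to 2 with 1 sample left out. The 1 HOX call fell to 0 with the filter at a mean of 5 FPKM, which removed HOXB9, and was 0 to 1 with 1 sample left out. The 3 proliferation calls fell to 1 without a filter and to 1 without the variance trend, and were 0 to 3 with 1 sample left out. Leaving out a sample moved the ZNF148 log2 fold change to between -1.74 and -1.45, and the pseudocount moved it to -2.57 (0.1 FPKM) and -0.69 (5 FPKM).

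Same-numbered samples deviated from their group means with correlations of 0.001, -0.088 and 0.030. These correlations cannot tell whether same-numbered samples were prepared together, which the labels do not say. The ERBB2 row was at 126 FPKM in shCtr replicate 2 and at 125 FPKM in shZNF148 replicate 2, far above the other samples. In a fit with a replicate block, the further Polycomb genes had 0 calls, the HOX genes 0, the proliferation genes 1 and the members 0, and all rows had 401 calls in place of 1600. The block gave p = 0.25 for both paralog pairs in an exact sign-flip test, the smallest that 3 pairs allow, with differences of 0.34 for EZH2 over EZH1 and 0.48 for RBBP4 over RBBP7 on the log2 scale. Over all rows, calls ran from 29 without shCtr replicate 1 and 47 without shCtr replicate 3 to 1731 without shZNF148 replicate 2, and were 312 without shCtr replicate 2 and 403 without shZNF148 replicate 1. Both paralog ratios kept their direction in all 9 alternatives. The read number behind the values is unknown, so the counting error of low members such as CBX2 cannot be given.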
